A study of Homo sapiens with 35 samples.

Results

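The loci described here are 4 chromosomal regions that hold genes of the epidermis: the epidermal differentiation complex on chromosome 1 (151.9 to 153.6 Mb, with FLG, IVL and LOR), the type II keratins on chromosome 12 (52.5 to 53.4 Mb, with KRT5 and KRT1), the type I keratins on chromosome 17 (38.8 to 39.8 Mb, with KRT10 and KRT14) and the desmosomal cadherins on chromosome 18 (28.5 to 29.2 Mb, with DSC1, DSG1 and DSG3). The regions are defined by position in the genome build hg19 and not by a limit on their values. They were chosen with earlier results of these data known. They overlapped 43 bins of 100 kb (17, 9, 10 and 7 in the order above), out of 26584 bins that had values. The flanks, 1 Mb on each side of each region, gave 80 further bins for comparison. An hg19 gene annotation was not used here, so a gene is placed in its region and not in a single bin.

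Contacts of DNA with the nuclear lamina were measured in single KBM7 cells, a human leukaemia line, with lamin B1 fused to the bacterial methylase Dam. All samples belong to 1 group: clone 5-5, labelled 2N and diploid, all with the same fusion, all given 0.5 nM Shield1 for 15 h before sorting, and all sorted among the 2% smallest cells that carried both Fucci markers of the cell cycle. Each bin of a cell has an OE value, its observed reads divided by those expected, and a bin counted as in contact where its OE was 1 or more. Of 35 labelled cells, 32 matched a column of values, and the other 3 were not analysed here. The cells come from 1 clone of 1 leukaemia line that is not of epidermal origin, neither epidermal cells nor an unfused-Dam control entered the comparisons, and no RNA was measured, so expression of these genes in KBM7 is not known from these data.

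Keratins are the filament proteins of epithelial cells, and each filament pairs a type I with a type II keratin. KRT5 and KRT14 pair in the dividing basal layer of the epidermis, and KRT1 and KRT10 replace them in the differentiating layers above. FLG (filaggrin) bundles keratin filaments, and IVL (involucrin) and LOR (loricrin) are proteins of the cornified envelope that seals the outermost cells. DSC1 (desmocollin 1), DSG1 and DSG3 (desmogleins 1 and 3) are cadherins that join the desmosomes of neighbouring cells. In many cell types, genes of other tissues lie in stretches of chromatin that touch the lamina.

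In the RefSeq table at hand, which is of the build GRCh38.p14 and was used for names and order only, all 10 genes were found, LOR under the symbol LORICRIN. FLG and IVL are separated by 25 protein-coding genes, 19 of them of the late cornified envelope (LCE) family, and IVL and LOR by 13, of which 11 are small proline-rich (SPRR) genes. Between KRT5 and KRT1 stand 5 keratin genes (KRT71, KRT74, KRT72, KRT73 and KRT2). KRT10 and KRT14 have 52 protein-coding genes between them, 18 keratins and 34 keratin-associated proteins of hair. DSC1 and DSG1 are direct neighbours, and DSG4 alone lies between DSG1 and DSG3.

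DamID reads a locus only at GATC, the site that Dam methylates. The 100 bases before the start of 4 of the genes are shown because the results below turn on the contrast between the cluster of DSC1, DSG1 and DSG3, which was often in contact, and clusters that rarely or never were, such as that of LOR. GATC is in capitals, and the sequences are from RefSeq, 5′ to 3′ on the strand of the gene, in the build GRCh38.p14 and not hg19.
DSC1 (chr18:31162857-31162956, minus strand): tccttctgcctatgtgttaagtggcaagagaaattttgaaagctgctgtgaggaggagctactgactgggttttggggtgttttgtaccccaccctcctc
DSG1 (chr18:31318060-31318159, plus strand): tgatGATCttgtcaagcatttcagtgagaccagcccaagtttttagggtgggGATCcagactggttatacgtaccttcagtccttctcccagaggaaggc
DSG3 (chr18:31447641-31447740, plus strand): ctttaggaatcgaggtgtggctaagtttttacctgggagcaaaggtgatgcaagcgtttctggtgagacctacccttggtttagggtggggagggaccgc
LOR (chr1:153259587-153259686, plus strand): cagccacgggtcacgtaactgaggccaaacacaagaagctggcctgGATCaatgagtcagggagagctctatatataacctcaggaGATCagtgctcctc
DSG1 and LOR each have 2 GATC sites in this stretch, and DSC1 and DSG3 have 0. Over the longer window of 250 bases before to 50 after the start, 4 of the 8 members with an entry held GATC (FLG, LOR, KRT5 and DSG1), beside 41.7% of the 35116 promoters of that length that were counted. GATC reads the same on both strands. A value of OE covers 100 kb, so the sites shown are a small part of what a bin measures.

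The cells differed in depth, with 985 to 258202 reads recovered from the ratios (median 120148). Cells 13, 15 and 17 had at most 1755 reads, and in these a single read gave a median OE of 13.7 to 24.9, so that any read was a contact. In the other 29 cells, called the deeper cells below, a single read gave a median OE of 0.0940 to 0.605. Over all bins, a cell had 26.3% ± 8.08 of its bins in contact (SD, n = 32), the median bin was in contact in 6.25% of the cells, and 42.0% of all bins were never in contact.

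The 4 clusters differed widely in contact. The desmosomal cadherin cluster had 52.2% ± 32.8 of its bins in contact per cell (SD, n = 32), whereas the epidermal differentiation complex had 1.47% ± 3.34 and both keratin clusters had 0% in every cell. By cell, the share of the desmosomal cluster ran from 0 to 100% with a median of 42.9%, and that of the differentiation complex from 0 to 11.8% with a median of 0%. The ranges of the 2 clusters overlapped in the cells where the desmosomal cluster was at 0%. The desmosomal cluster exceeded the differentiation complex by 50.8 percentage points (95% interval 39.5 to 62.0, by normal approximation) and each keratin cluster by 52.2 points (40.9 to 63.6), being higher in 29 cells and equal in 3 in each case (two-sided sign-flip permutation test over cells, p = 1e-05, the smallest that 100000 resamples can give; adjusted p = 2e-05 over the 6 pairs of clusters). Both keratin clusters were at 0% in every cell, so the difference from each is the desmosomal share itself and could not be negative. Its p-value therefore reflects only that 29 cells had a desmosomal contact. The p-values here measure the spread between cells of 1 clone.

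**Figure D1:**
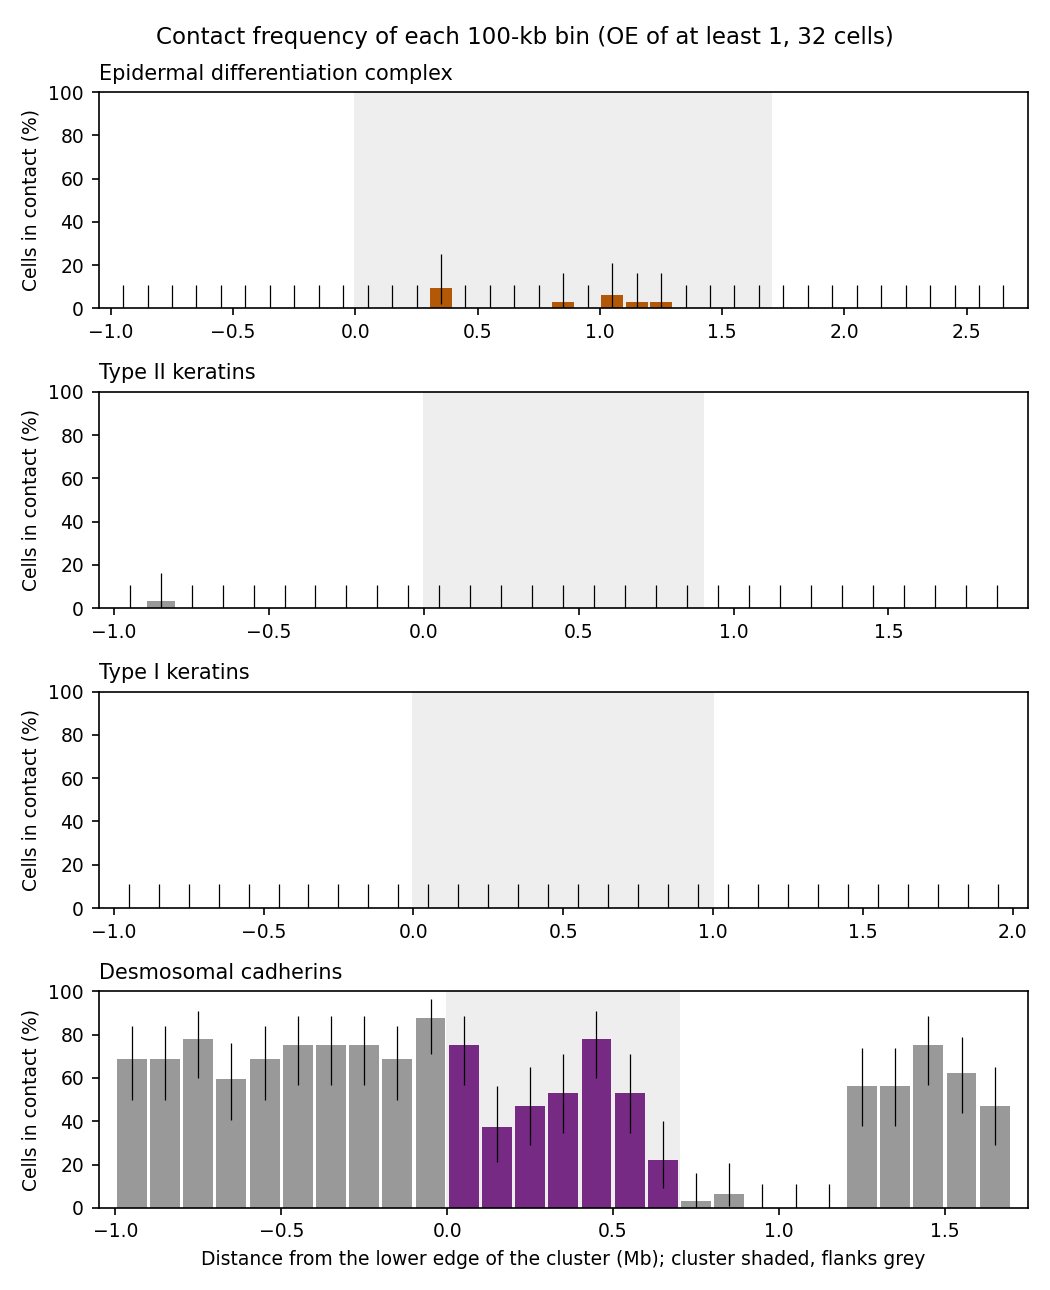
Contact frequency (percent of 32 cells with an OE of at least 1) of each 100-kb bin, as bars with exact 95% binomial intervals, against the distance in Mb from the lower edge of each cluster. The cluster is shaded and its bins are coloured, and the 1-Mb flanks are grey; bins of the desmosomal cadherins reach 78.1%, those of the differentiation complex at most 9.38%, and those of both keratin clusters 0%.

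The bins were also tested singly against the number of cells that their overall contact shares predict, 8.42 (exact two-sided Poisson-binomial test, Benjamini-Hochberg adjustment over all 26584 bins, threshold 0.05). A bin had to be in contact in at most 3 cells to be called lower and in at least 15 to be called higher. All 36 bins of the differentiation complex and of the keratin clusters were called lower, against 54.5% of all bins. Of the 7 desmosomal bins, 5 were called higher and 0 lower, against 30.3% of all bins called higher. Within their chromosomes the background was 65.5% called lower on chromosome 1, 59.9% on chromosome 12 and 87.3% on chromosome 17, and 38.3% called higher on chromosome 18. On chromosome 17 a lower call is therefore near the rule for any bin. The flanks were called much like the clusters. All 20 flank bins of the differentiation complex, and all 20 of each keratin cluster, were called lower. Of the 20 desmosomal flank bins, 15 were called higher and 5 lower, and all 10 bins of the lower flank were called higher. The calls therefore do not set the clusters apart from their flanks.

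The desmosomal cluster was more often in contact than the rest of its chromosome, and the other 3 were less so. On chromosome 18 the rest of the bins had a share of 32.3% ± 12.7, and the cluster exceeded it by 19.9 percentage points ± 24.4 (SD, n = 32), in 24 of 32 cells (sign-flip permutation test, adjusted p = 3e-05 over the 4 clusters). The differentiation complex lay 17.0 points below the rest of chromosome 1 (18.5% ± 7.25), a difference of -17.0 ± 7.20. The type II keratins lay below the rest of chromosome 12 (22.8% ± 8.83) with a difference of -22.8 ± 8.83, and the type I keratins below the rest of chromosome 17 (6.29% ± 3.24) with a difference of -6.29 ± 3.24. Each of these 3 was lower in 32 of 32 cells (adjusted p = 1.33e-05 for each). Many other bins of these chromosomes were never in contact either. Their part of the rest was 52.5% on chromosome 1, 47.0% on chromosome 12 and 78.9% on chromosome 17. For a keratin cluster, at 0% in every cell, the difference is the share of the rest with its sign turned. These tests therefore do not set the loci apart from other regions of their chromosomes without contact. With an OE limit of 2, the excess of the desmosomal cluster over its chromosome was 6.42 points and did not pass (adjusted p = 0.179), and with any read counted as contact the difference of the type I keratins from chromosome 17 did not pass (-4.26 points, 95% interval -9.44 to 0.914, adjusted p = 0.119).

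The cluster of the desmosomal cadherins, which hold epithelial cells together, began in the last part of a long contacted stretch and ran beyond it. Bins in contact in 50% or more of the cells ran without a break from 24300001 to 28600000 on chromosome 18 (hg19), 4.3 Mb in length, and took in the first of the 7 bins of the cluster. After it the frequency dipped and then rose again over a second stretch of 0.3 Mb (28800001 to 29100000), which covered 3 bins of the cluster. The cluster's bins, in order of position, were in contact in 24, 12, 15, 17, 25, 17 and 7 of the 32 cells. The 2 bins that were not called higher were those with 12 and 7 cells. The bin of highest frequency, 28900001 to 29000000, was at 78.1% (exact 95% binomial interval 60.0 to 90.7%), and the lowest, the last bin at 29100001 to 29200000, was at 21.9% (9.28 to 40.0%). The intervals of these 2 bins did not overlap. The bins were picked as the extremes and counted in the same 32 cells, so this is a description.

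In OE, the first bin (28500001 to 28600000) had a lowest value of 0, a median of 2.04 and a highest of 9.19 over the 32 cells, with 5 cells at 0. The second bin ran from 0 to 5.55 with a median of 0.510, the third from 0 to 8.33 with a median of 0.980, and the fourth from 0 to 7.51 with a median of 1.01. The fifth bin ran from 0 to 18.7 with a median of 2.05, and only 2 cells were at 0. Its highest value came from a shallow cell in which 1 read suffices, and the highest of the 29 deeper cells was 4.26. That bin had a mean OE of 2.45 ± 3.13 over all cells and 2.06 ± 0.897 over the deeper cells (SD). The sixth bin ran from 0 to 3.34 with a median of 1.11, and the seventh from 0 to 2.31 with a median of 0.334 and 11 cells at 0. The first and the fifth bin thus stood above their neighbours within the cluster, and every bin had cells on both sides of the limit. In the deeper cells the contact frequencies of the 7 bins were 82.8, 41.4, 51.7, 58.6, 82.8, 58.6 and 24.1%.

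The dips and peaks were also seen within single cells. In 13 cells the fifth bin was in contact and the second was not, and in 0 cells it was the reverse. In 19 cells the fifth bin was in contact and the seventh was not, with 1 cell the other way round. These pairs of bins were picked for their difference, so the counts are a description. Of the 28 cells in contact in the last flank bin before the cluster, 24 were also in contact in the first bin of the cluster, 12 without a gap up to the second, 9 up to the third, the fourth and the fifth, 8 up to the sixth and 5 up to the end.

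The desmosomal cluster lay between its 2 flanks in contact share. The lower flank (27500001 to 28500000) had 72.5% ± 35.1 of its bins in contact, with a range over cells of 10 to 100% and a median of 90%, and the higher flank had 30.6% ± 19.3, with a range of 0 to 60% and a median of 30%. The cluster minus the lower flank was -20.3 points ± 24.9 (lower in 21, higher in 7 and equal in 4 of 32 cells; sign-flip permutation test, adjusted p = 2e-04), but with any read counted as contact it was -1.25 points and did not pass (adjusted p = 0.667). Its excess over the higher flank was 21.6 points ± 23.2 (higher in 25, lower in 6 and equal in 1; adjusted p = 8e-05). Against both flanks pooled, at 51.6% ± 25.0, the difference was 0.670 points ± 20.1 with a 95% interval of -6.30 to 7.63 (adjusted p = 1). That pooled value depended on the width of the flanks, at 13.2 points with 0.5 Mb (adjusted p = 0.0187) and -12.4 points with 2 Mb (adjusted p = 0.0101). It also passed with an OE limit of 0.5 (6.45 points, adjusted p = 0.0442) and with any read counted (10.0 points, adjusted p = 0.00204), but not with an OE limit of 2 (-7.99 points, adjusted p = 0.133). The median expected weight of a bin, in the whole-number units of the authors' expectation, was 704 in the cluster and 617 in the flanks. Its part in the value with any read was not tested.

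**Figure D2:**
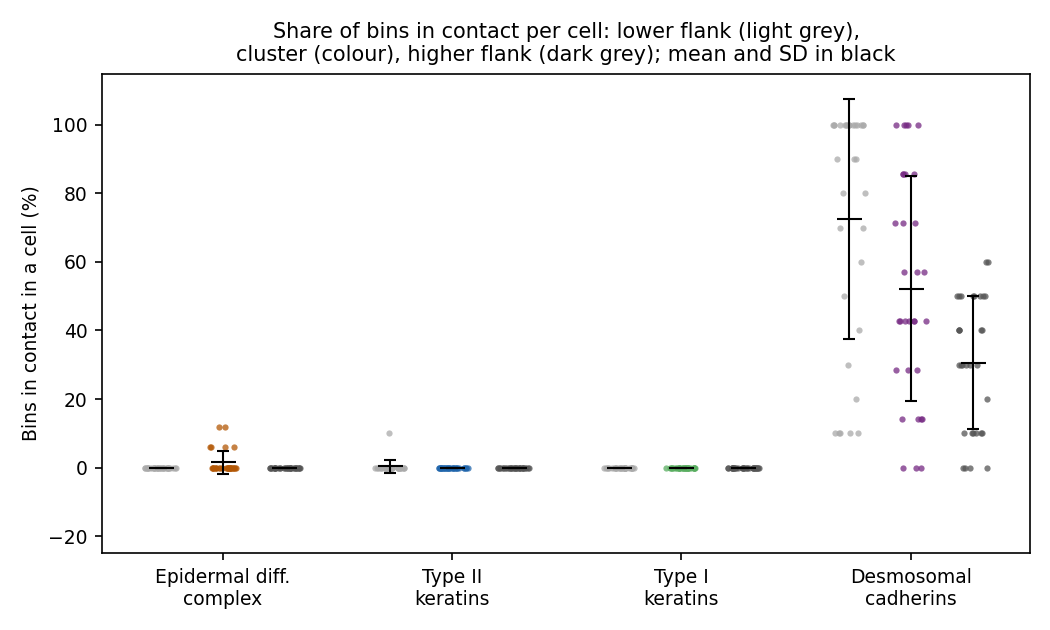
Percent of bins in contact in each of 32 cells (points, with mean and SD in black) for the lower flank (light grey), the cluster (colour) and the higher flank (dark grey) of the 4 loci. At the desmosomal cadherins the means fall from 72.5% over 52.2% to 30.6%, and at the other 3 loci nearly every point lies at 0%.

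The low mean of the higher flank came from 5 adjacent bins. From 29200001 to 29700000, directly after the cluster, the contact frequency of a bin was at most 6.25%, and the cells had 1.88% ± 5.92 of these bins in contact. The following 5 bins, up to 30200000, were at 46.9 to 75.0%, with a cell mean of 59.4% ± 36.5. In mean OE the order from low to high position was 2.55 ± 1.48 in the lower flank, 1.53 ± 1.15 in the cluster, 0.168 ± 0.191 in the 5 bins of low contact and 2.00 ± 1.48 after them (SD, n = 32). The 5 bins were picked for their low frequency, so no test was made of them. In 16 cells both the fifth bin of the cluster and the first bin after the drop were in contact.

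Cells differed widely in how much of the desmosomal cluster was in contact. In 5 cells (9, 11, 22, 32 and 33) all 7 bins were in contact, and in 3 cells (5, 13 and 17) no bin was, 2 of these 3 being shallow. Between these, 4, 3, 7, 3, 3 and 4 cells had 1, 2, 3, 4, 5 and 6 bins in contact. All 29 deeper cells had reads in the cluster, with 2129 reads in all 32 cells. The table does not separate the 2 copies of a chromosome, so a cell with some bins in contact may hold different states of each copy.

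Over the 29 deeper cells, the share of the desmosomal cluster rose with that of the rest of chromosome 18 (Pearson's r = 0.69), of the lower flank (0.65) and of the higher flank (0.66). With the contact share of the whole cell r was 0.31, and with log10 reads it was 0.42. These correlations are descriptions over cells that are labelled with the same treatment and preparation steps and that differ in depth. The part of depth in them was not tested. Directly adjacent bins of the cluster correlated at 0.31 to 0.39 over the same cells. For any pair of neighbouring bins, 9 to 12 of the 32 cells were in contact in 1 of the 2 only.

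**Figure D3:**
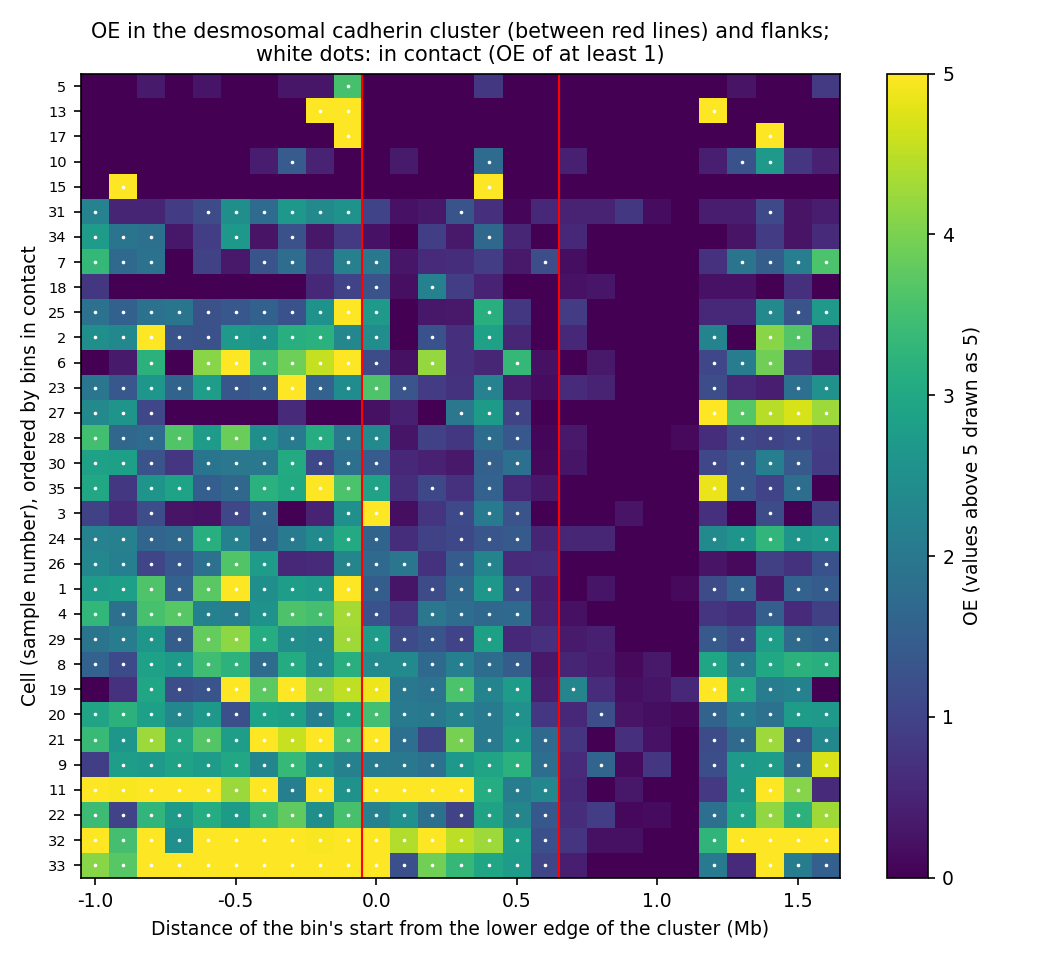
OE (colour, values above 5 drawn as 5) of each 100-kb bin in the desmosomal cadherin cluster (between the red lines) and its 1-Mb flanks, 1 row per cell, ordered by the number of cluster bins in contact (white dots: OE of at least 1). The 5 bins after the cluster are dark in nearly all rows, and the last bin of the cluster has a dot in 7 of 32 cells.

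The epidermal differentiation complex, which holds filaggrin, involucrin, loricrin and the LCE and SPRR families, was in contact in few cells and few bins. Of its 544 values (17 bins in 32 cells), 8 were contacts, and they lay in 6 cells, of which 2 (cells 21 and 28) had 2 contacts each. By bin, 152200001 to 152300000 was in contact in 3 cells, the highest frequency of the complex at 9.38% (exact 95% binomial interval 1.98 to 25.0%), 152900001 to 153000000 in 2, and 3 others in 1 cell each. The remaining 12 bins were in contact in no cell, which by the same interval allows up to 10.9% of cells per bin. The OE of the 8 contacts was 1.06 to 2.03, from 4 to 12 reads, in cells of 115965 to 210848 reads. None of them came from a shallow cell, and the 2 contacts of a cell were never in adjacent bins. The bin 152200001 to 152300000 had an expected weight of 434, in the whole-number units of the authors' expectation, against a median of 680 in the complex. A bin of lower weight needs fewer reads to reach the limit. Its contacts came from 4, 12 and 5 reads in cells 19, 28 and 35. Without bins of low expected reads, contacts remained in 4 cells.

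The flanks of the complex had 0 contacts in 640 values. Stretches of never-contacted bins ran from 149500001 to 152200000 (2.7 Mb) below and from 153200001 to 157500000 (4.3 Mb) above, and together these took in 7 bins at the edges of the complex. All contacts thus lay within the inner 1 Mb (152200001 to 153200000). With contacts in 6 cells and none in the flanks, the difference of 1.47 percentage points (95% interval 0.313 to 2.63) could reach no p below 0.0312, and it did not pass over the 4 clusters (sign-flip permutation test, p = 0.0317, adjusted p = 0.127). Against each keratin cluster, at 0 in every cell, the same 6 cells gave the same difference and the same p before adjustment. The adjusted p was 0.0380 over the 6 pairs, and it is lower than against the flanks only through the other comparisons in the adjustment. It was 0.149 without bins of low expected reads (1.04 points).

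Over all its values, the 8 contacts included, the differentiation complex carried more signal than its flanks. The mean OE of the complex was 0.0712 ± 0.103 per cell, from 0 to 0.454 with a median of 0.0208, against 0.0165 ± 0.0194 in the flanks, from 0 to 0.0755 with a median of 0.0113 (SD, n = 32). The cells overlapped, and the complex was higher in 19, lower in 6 and equal in 7 of them (sign-flip permutation test, adjusted p = 0.0016). Counting any read, 16.7% ± 19.5 of its bins had a read in a cell, against 6.88% ± 8.30 of the flank bins (adjusted p = 0.00301). In absolute terms this was 258 reads over 32 cells, 62 of them (24.0%) in cell 28, and 7 of the 29 deeper cells had none. Without cell 28 the difference in mean OE was 0.0422 (adjusted p = 0.00288). The median expected weight of a bin, in the whole-number units of the authors' expectation, was 680 in the complex and 530 in the flanks. Its part in the share of bins with a read was not tested, while OE is already divided by it.

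The signal was uneven along the complex. The inner 1 Mb was marked off by the contacts themselves. Higher means inside it therefore follow in part from that choice, and the values are a description. In the 10 bins of the inner 1 Mb, in order of position, the mean OE was 0.235, 0.0759, 0.0165, 0.0566, 0.0565, 0.157, 0.101, 0.158, 0.116 and 0.107, and 4 to 10 cells had a read. In the 3 bins before these it was 0.0136, 0.0163 and 0.0487, and in the 4 bins after them 0.0255, 0, 0.0204 and 0.00713, with a read in at most 5 cells. The ranges of the inner and the outer bins overlapped, since the inner bin 152400001 to 152500000 (0.0165) lay below the outer bin 152100001 to 152200000 (0.0487). The highest flank bin, 154100001 to 154200000, had a mean OE of 0.0899 with a read in 10 cells, so a weak signal of that kind was not limited to the complex.

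The type II keratins, which include the basal KRT5 and the suprabasal KRT1, showed no contact in any of 9 bins and 32 cells. They lay inside a stretch of 2.7 Mb that was in contact in no cell (51700001 to 54400000). In the flanks 1 bin, 51600001 to 51700000, was in contact in 1 cell. The mean OE was 0.00997 ± 0.0202 in the cluster, from 0 to 0.0946, and 0.0136 ± 0.0195 in the flanks, from 0 to 0.0674 (SD, n = 32), and the ranges overlapped. The difference was -0.00362, with a 95% interval of -0.0100 to 0.00282 (sign-flip permutation test, adjusted p = 0.279). In all, 21 reads fell in the cluster, 5 of them in cell 1, 18 of the 29 deeper cells had none, and the bins 52700001 to 52800000 and 52900001 to 53000000 had no read in any cell.

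The type I keratins, with KRT10, KRT14 and the hair keratin-associated genes between them, had no contact either, in 10 bins and 32 cells. Their highest OE, 0.996 in the bin 39100001 to 39200000, was just under the limit of 1, while that of the type II keratins was 0.464. The type I keratins lay in a never-contacted stretch of 7.1 Mb (36400001 to 43500000) on chromosome 17, of which 79.2% was never in contact, counted in bins. Their reads were not as few as those of the surroundings. The mean OE was 0.0399 ± 0.0792, from 0 to 0.368 with a median of 0.0148, against 0.00935 ± 0.0129 in the flanks, from 0 to 0.0478 with a median of 0.00213 (SD, n = 32). The values overlapped, with the cluster higher in 16, lower in 6 and equal in 10 cells (sign-flip permutation test, adjusted p = 0.0106). With any read counted, 13.1% ± 18.0 of the bins had a read, against 4.69% ± 6.95 in the flanks (adjusted p = 0.00301). The median expected weight of a bin was 698 in the cluster and 568 in the flanks, and its part in this share was not tested.

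The weak signal of the type I keratins was spread over 17 cells, unevenly. Of 94 reads in the cluster, 34 (36.2%) came from cell 1, in which the mean OE was 0.368, and 17 from cell 30, while 12 of the 29 deeper cells had no read. Without cell 1 the difference in mean OE fell from 0.0305 to 0.0202 (adjusted p = 0.0201) and that in bins with a read was 6.94 points (adjusted p = 0.00517). By bin, the mean OE was highest at 39100001 to 39200000 (0.0677, a read in 5 cells) and lowest in the last bin (0.0159, a read in 2 cells), and the bin with a read in the most cells, 7, was 39400001 to 39500000. Of the 10 bins, 7 exceeded 0.0218, the median over the 11165 bins of the genome that were never in contact, beside 1 of 20 in the flanks. For the type II keratins this was 1 of 9 bins, beside 4 of 19 never-contacted bins in the flanks. Among the never-contacted bins of the differentiation complex it was 6 of 12, beside 6 of 20 in the flanks. The limit is a median, so about as many never-contacted bins of the genome lie above it as below.

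**Figure D4:**
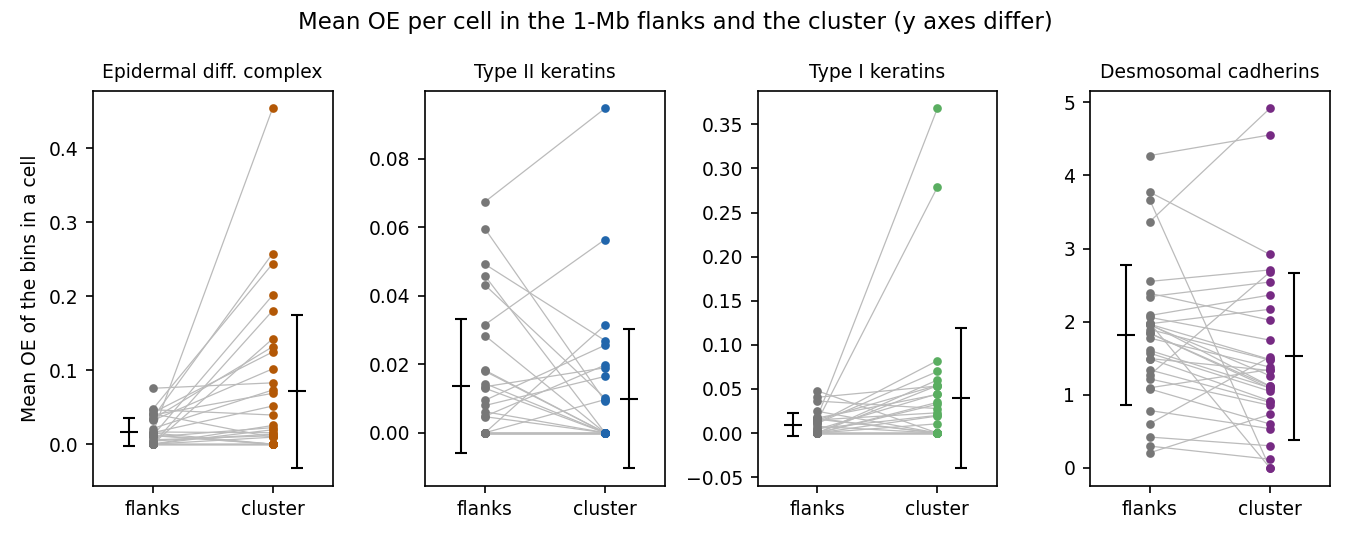
Mean OE of the flank bins and of the cluster bins in each of 32 cells (points, a line joins the values of a cell; mean and SD in black), with a separate y axis for each locus. Cluster values reach 0.454 at the differentiation complex, 0.0946 at the type II keratins, 0.368 at the type I keratins and 4.92 at the desmosomal cadherins.

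The 2 keratin clusters differed in this weak signal though not in contact. The type I cluster exceeded the type II cluster by 0.0299 in mean OE (95% interval 0.00435 to 0.0554; higher in 17, lower in 2 and equal in 13 of 32 cells) and by 7.22 points in bins with a read (sign-flip permutation tests, adjusted p = 0.00826 and 0.00439 over the 6 pairs). The median expected weight of a bin was 698 in the type I and 646 in the type II cluster. Its part in the difference in bins with a read was not tested. The differentiation complex exceeded the type II keratins in mean OE (a difference of type II minus complex of -0.0612, adjusted p = 1.5e-04). Between the type I keratins and the complex the difference in mean OE was -0.0313, with a 95% interval of -0.0768 to 0.0141 (adjusted p = 0.189). Over the 29 deeper cells, the mean OE of the 4 clusters correlated weakly, with Pearson's r from -0.31 (type II keratins and desmosomal cadherins) to 0.37 (type II and type I keratins), as a description over cells with few reads in 3 of the 4 clusters.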

How the data were processed

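Single-cell DamID for lamin B1 was analysed in 32 cells of 1 group. The deposited values are ratios, and per the file headers and the submitters' processing notes each (OE) divides the observed by the expected reads of 1 cell and 100-kb bin on hg19. The notes name cutadapt and Bowtie2 2.1.0. The labels and headers do not state how the expectation was made or which filters were applied. The values behave as reads times a constant of the cell over a whole-number weight of the bin. Reads and weights were recovered from that, with 100% of values whole within 0.05 reads, which follows from the method. A bin without a read has no weight. PCR copies of a molecule cannot be told apart. Exact intervals of a bin's frequency cover the counting of 32 cells only, and intervals of a difference come from its spread between cells (normal approximation). Nothing says that the cells came from separate cultures, so p-values measure only the spread between these cells.

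Regions were compared within cells by two-sided sign-flip permutation tests (100000 resamples), adjusted by Benjamini-Hochberg over 4 clusters or 6 pairs. Where 2 regions are at 0 in every cell there is no test. Bins were tested by an exact Poisson-binomial test over all 26584 bins. Both tests and the recovery of reads were tested on simulated data. The simulated differences had no ties and the simulated bins were independent, whereas here many cells were equal and adjacent desmosomal bins correlated. Alternatives were other OE limits, flank widths and sides, mean OE, and leaving out cells or bins. The members and lists were chosen with earlier results of these data known. The text gives all 10 genes by cluster, the extreme bins and longest stretches of each cluster and every desmosomal bin; other bins, and the 4 genes whose sequence is shown, were chosen after values were seen. Epidermal genes elsewhere were not analysed here. Python 3.11.15, numpy 2.4.6, pandas 2.3.3, scipy 1.17.1 and matplotlib 3.10.9 were used.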

Additional observations from a re-analysis of the deposited data

How the results depend on the processing

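Of 210 recomputed values, 158 changed little: 93 were differences between regions that crossed no threshold and did not turn, although 18 of these have no sign to compare because 1 or both values are 0, and 16 allow no test because all cells are equal. The other 65 were shares that moved by less than 1 SD and counts of bins within 1.5 times. The desmosomal cluster stayed above each of the other 3 by 28.4 points or more of contact share under every OE limit and choice of cells or bins. Against both 1-Mb flanks its difference had no stable sign: it was -20.3 points for the lower flank and 21.6 for the higher, 13.2 and -12.4 with 0.5-Mb and 2-Mb flanks, 6.45 and -7.99 with OE limits of 0.5 and 2, 10.0 with any read, -0.506 without the 8 sparsest cells, -2.04 without bins of low expected reads and -0.292 in mean OE. Of these, the values for each flank alone, for 0.5-Mb and 2-Mb flanks, for the limit of 0.5 and for any read passed the test. Combinations chosen after the data were seen gave, with any read, -1.25 for the lower flank, which no longer passed, and 21.3 for the higher flank, 11.6 without the shallow cells and 10.0 without cell 32, and in mean OE -0.176 and -0.310. Its excess over chromosome 18 was 6.42 with an OE limit of 2, where 2 of its bins were called higher and 1 lower.

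The differentiation complex against its flanks newly passed with an OE limit of 0.5 (4.86), with any read (9.85) and in mean OE (0.0547); with any read it was 10.8 and 8.92 for the lower and higher flank, 10.9 without the shallow cells and 8.41 without cell 28, and in mean OE 0.0603 and 0.0422. The type I keratins did so with any read (8.44) and in mean OE (0.0305); with any read it was 8.13 and 8.75 by flank, 9.31 and, without cell 1, 6.94, and in mean OE 0.0337 and 0.0202. Type II against its higher flank turned to 1.22 with any read. Type I against chromosome 17 was -4.26 with any read. Type II minus the complex no longer passed with an OE limit of 2 (-0.184) or without bins of low expected reads (-1.04), nor did type I minus the complex (-0.184 and -1.04, with -2.83 at 0.5, -3.60 with any read and -0.0313 in mean OE). Type I minus type II passed with any read (7.22) and in mean OE (0.0299). The contact share was 5.33% and 16.7% for the complex with an OE limit of 0.5 and with any read, 2.50% and 13.1% for type I, and 5.90% for type II with any read. A single read was worth a median of up to 0.605 OE in a deeper cell, which limits what can be read from shares near 0.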
